A study of Mus musculus with 8 samples.

Results

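The effect of a western diet on the liver was read from 5 RNA-seq libraries of male C57BL/6N wild-type mice that had all been injected with corn oil, the vehicle, into the peritoneum once a week. The 3 normal diet + oil libraries came from mice on normal chow and tap water. The 2 western diet + oil libraries came from mice given a high-fat diet and drinking water with 23.1 g/L fructose and 18.9 g/L glucose, so fat and sugar were changed together and cannot be told apart. These 5 libraries were all those with oil, of 8 in the series, and the other 3 came from mice injected with CCl4, a liver toxin. Feeding time, age and the number of animals behind a library are not given in the sources used here. Nothing says that the libraries came from separate animals, so p-values measure no more than how these libraries scatter, and that scatter may be technical. Values are FPKM, fragments per transcript length and per mapped fragments of the library. A gene was tested if 2 or more of the 5 libraries reached an FPKM of 1, which left 10868 of 55487 genes.

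The liver turns sugar into glycogen and fat, packs fat into lipoproteins, burns it or stores it in droplets, and makes bile acids and most plasma proteins. Male and female mouse livers differ in many genes, chiefly because growth hormone is released in pulses in males and more evenly in females. Around the hepatocytes lie Kupffer cells, sinusoidal endothelial cells, bile duct cells and stellate cells, which store retinoids and can make collagen.

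Hepatocyte markers were high in all 5 libraries. The 7 hepatocyte markers summed to between 37778 and 45966 FPKM with the normal diet and between 33877 and 41515 with the western diet. Of the 7, 0 passed the test by limma (2 at an unadjusted p below 0.05). All 7 had a log2 fold change below 0 (median -0.11), where 76.7% of all tested genes lay above 0. Libraries correlated with each other at between 0.924 and 0.983 (Pearson's r of log2(FPKM + 1) across genes, a description). The major urinary proteins (Mup), pheromone carriers made by male hepatocytes, held 16.9%, 22.1% and 32.5% of all FPKM in libraries 1, 2 and 3 of the normal diet. In western diet library 1 they held 9.16%, and library 2 was close to it. FPKM is a share of each library, and across tested genes the median log2 fold change was 0.21. Under median-of-ratios scaling, which centres the libraries on their median ratio, it was -0.01. A fold change below is therefore to be read against 0.21, and counts under that scaling are given beside the main ones. Normal diet library 3 stood apart in clock genes: Arntl, a core clock activator, read 0, 0 and 4.31 FPKM in libraries 1, 2 and 3, and Dbp, a clock output gene, 51.1, 47.8 and 0.481 FPKM.

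Of the 10868 genes, 995 rose with the western diet (9.16%) and 109 fell (1.00%) at an adjusted p below 0.05 (limma on log2(FPKM + 1), two-sided, Benjamini-Hochberg). These shares are the background for every list below. Without regard to the test, 40.4% of genes lay higher in both western diet libraries than in all 3 normal diet libraries, and 5.29% lay lower. With all 8 libraries in 1 fit, 439 genes were called higher (3.81%) and 69 lower (0.599%). The calls were 90.1% higher, and 76.4% higher under median-of-ratios scaling, which called 479 genes higher (4.43% of those it tested) and 148 lower (1.37%). Of the main calls, 479 higher and 105 lower ones were shared with that scaling. Without western diet library 2 the test called 3 genes higher and 2 lower, without western diet library 1 it called 190 and 33, and without normal diet library 2 it called 635 and 67. Of the 134 named genes that passed, 96 also passed under median-of-ratios scaling. A gene that is low with the normal diet can pass the filter through the western diet libraries alone. Counts are over tested members and can therefore favour increases in lists with many low genes. Tested were 16 of 33 listed chemokines and receptors, 19 of 35 cell cycle genes and 30 of 45 extracellular matrix genes. Of 21 fetal and tumour-associated genes 8 were tested. In bulk tissue, fewer cells of a type and less RNA per cell cannot be told apart.

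In the sentences that follow, the FPKM of normal diet libraries 1, 2 and 3 stand first, against those of western diet libraries 1 and 2. Errors of log2 fold changes are standard errors, and adjusted p is from limma. The largest increase belonged to Ly6d (ENSMUSG00000034634, chromosome 15, 74762056 to 74763620 on GRCm38), a GPI-anchored surface protein known from B-cell precursors and epithelia, with 0.553, 1.27 and 0.528 against 64.3 and 73.3 FPKM (log2 fold change 5.31 ± 0.21, adjusted p = 0.000457). Cidea, which enlarges lipid droplets, read 0, 0.344 and 0 against 34.9 and 52.4 FPKM (log2 fold change 5.31 ± 0.23, adjusted p = 0.000457). Its relative Cidec read 1.59, 2.15 and 0.431 against 44.1 and 71.5 FPKM (log2 fold change 4.66 ± 0.36, adjusted p = 0.0034). In these 3 genes both western diet libraries stood far above the highest normal diet library. Cfd, the complement protease adipsin that fat cells make in abundance, read 0, 0.811 and 0 against 23.3 and 18.8 FPKM (log2 fold change 4.17 ± 0.29, adjusted p = 0.00241). Adgrv1, a very large adhesion receptor, was listed at 0 in all normal diet libraries and reached 6.42 and 20.2 FPKM in the others (adjusted p = 0.00575). Rad51b, a DNA repair protein, read 0, 0.874 and 0 against 12.5 and 10.4 FPKM (log2 fold change 3.33 ± 0.30, adjusted p = 0.00355). S100a11, a calcium-binding protein of the cytoskeleton, read 7.01, 10.1 and 3.63 against 53.2 and 106 FPKM (log2 fold change 3.36 ± 0.42, adjusted p = 0.00662). The other genes among the 12 largest increases were Apoa4, Cyp4a14, Marco, Orm3 and Apoc2, which are described with their groups.

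The 12 largest decreases included male-biased and sterol synthesis genes. Hsd3b5, a steroid dehydrogenase of the male liver (ENSMUSG00000038092, chromosome 3, 98618634 to 98630252 on GRCm38), read 80.2, 100.4 and 138 against 9.05 and 1.81 FPKM (log2 fold change -4.30 ± 0.52, adjusted p = 0.00618). Moxd1, a copper monooxygenase relative, read 4.29, 17.6 and 52.4 FPKM with the normal diet and was listed at 0 in both western diet libraries (adjusted p = 0.028). Capn8, a calpain protease, read 1.39, 2.77 and 7.57 FPKM with the normal diet and was also listed at 0 with the western diet (adjusted p = 0.0409). Both genes varied widely between the normal diet libraries, and library 3 held the highest value of each. Enho, which encodes the peptide adropin, read 11.1, 5.59 and 21.3 against 1.53 and 2.05 FPKM (log2 fold change -2.12 ± 0.46, adjusted p = 0.0342). Sqle and Idi1, enzymes of cholesterol synthesis, read 18.9, 25.6 and 25.9 against 4.88 and 1.09 FPKM and 32.3, 30.4 and 39.1 against 6.43 and 3.205 FPKM, and fell with log2 fold changes of -2.79 ± 0.41 and -2.64 ± 0.26 (adjusted p = 0.00981 and 0.00448). The choice of these 12 genes required that the diets did not overlap.

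**Figure D1:**
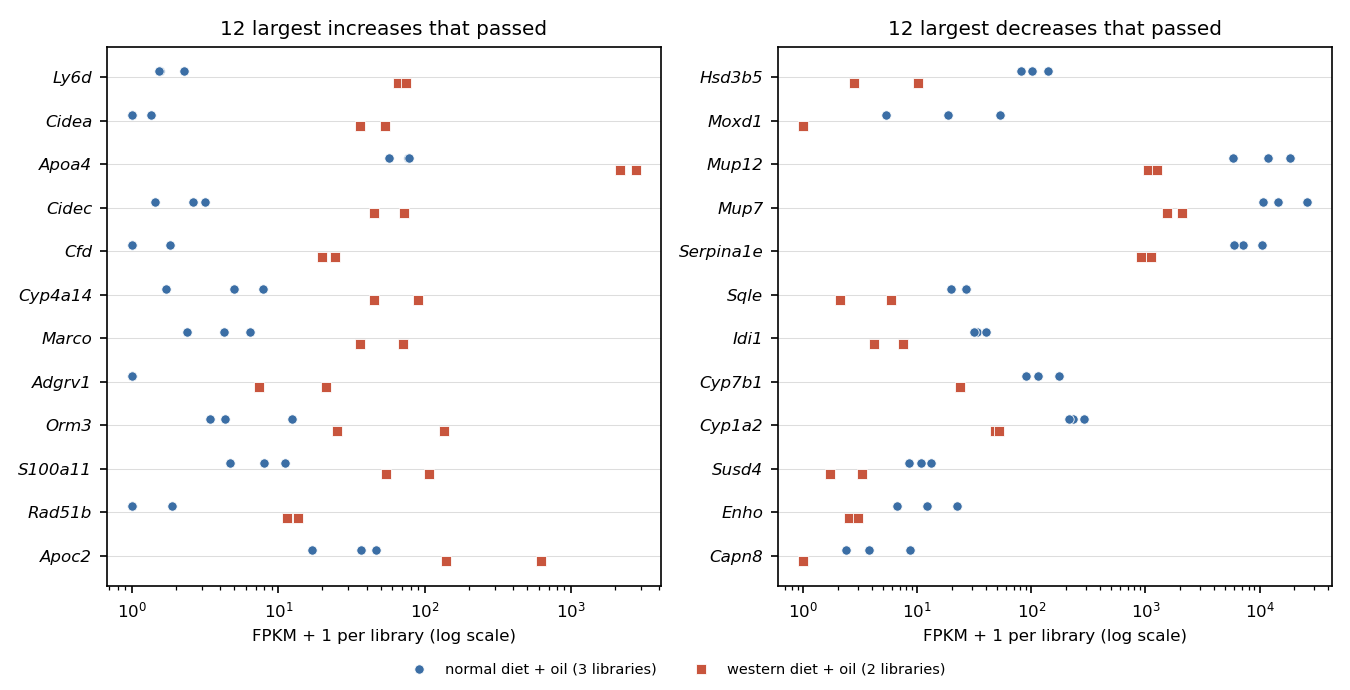
FPKM + 1 in each of the 5 libraries (log axis) for the 12 largest increases and the 12 largest decreases that passed, with circles for the 3 normal diet + oil libraries and squares for the 2 western diet + oil libraries. In each gene the circles and squares do not overlap, as the choice of genes required, and Moxd1 and Capn8 sit at an FPKM of 0 in both western diet libraries.

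Several genes that bring glucose into glycolysis rose with the western diet, while Khk and Slc2a5, which phosphorylate and take up fructose, did not pass. Of 30 tested genes for sugar entry and glycolysis, 10 rose and 0 fell (4 and 0 under median-of-ratios scaling), with a median log2 fold change of 0.59. Pfkl, the liver phosphofructokinase, read 5.41, 5.81 and 5.62 against 12.3 and 13.6 FPKM (log2 fold change 1.07 ± 0.14, adjusted p = 0.00701). In Pfkl both western diet libraries lay above every normal diet library. Pkm, the pyruvate kinase of non-hepatocyte and growing cells, read 2.06, 4.46 and 3.73 against 16.6 and 24.1 FPKM (log2 fold change 2.29 ± 0.28, adjusted p = 0.00625). Pklr, the hepatocyte's own pyruvate kinase, read 65.3, 75.1 and 35.04 against 103 and 82.6 FPKM but missed the threshold (log2 fold change 0.72 ± 0.33, adjusted p = 0.23). Akr1b3, the aldose reductase that turns glucose into sorbitol, read 1.67, 2.53 and 2.43 against 6.33 and 6.702 FPKM (log2 fold change 1.24 ± 0.17, adjusted p = 0.00773). Hk3, a hexokinase of blood cells, read 0.545, 0.587 and 0.697 against 2.01 and 2.89 FPKM (log2 fold change 1.09 ± 0.17, adjusted p = 0.0108). Further members that rose included G6pdx, Pfkfb1, Eno1, Ldha and Gpi1, with log2 fold changes between 0.80 and 0.97.

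On the fructose side, Khk, the ketohexokinase that starts fructose breakdown, read 264, 244 and 133 against 273 and 342 FPKM (log2 fold change 0.58 ± 0.33, adjusted p = 0.315). The fructose transporter Slc2a5 read 1.71, 2.18 and 0.983 against 1.79 and 1.99 FPKM (log2 fold change 0.16 ± 0.22, adjusted p = 0.67). In both genes normal diet library 3 was the lowest library. Slc2a2, the main hepatocyte glucose transporter, read 29.9, 33.7 and 15.5 against 27.4 and 25.3 FPKM, within the normal diet range (log2 fold change 0.07 ± 0.32, adjusted p = 0.915). Of 21 genes of gluconeogenesis and glycogen, 2 rose and 0 fell: Gbe1, the glycogen branching enzyme, read 19.6, 22.04 and 14.1 against 42.8 and 39.8 FPKM (log2 fold change 1.13 ± 0.21, adjusted p = 0.0221). Gyg, the glycogenin primer of glycogen, read 1.32, 1.48 and 1.47 against 3.56 and 3.32 FPKM (log2 fold change 0.87 ± 0.14, adjusted p = 0.011). Pck1, the rate-setting enzyme of gluconeogenesis, read 819, 612 and 559.8 against 649 and 579 FPKM (log2 fold change -0.09 ± 0.23, adjusted p = 0.827). G6pc, which releases free glucose, read 208, 152 and 181 against 139 and 66.2 FPKM (log2 fold change -0.90 ± 0.33, adjusted p = 0.144). Irs2, an insulin receptor substrate, read 1.35, 1.57 and 2.39 against 1.47 and 0.942 FPKM (log2 fold change -0.32 ± 0.21, adjusted p = 0.378).

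Fatty acid synthesis genes changed unevenly. Of 23 lipogenesis genes, 4 rose and 1 fell (2 and 1 under median-of-ratios scaling). Among those that rose, Fads2, the delta-6 desaturase of polyunsaturated fatty acids, read 113, 115 and 75.7 against 329 and 363 FPKM (log2 fold change 1.79 ± 0.23, adjusted p = 0.00701). Acaca, acetyl-CoA carboxylase, was another. Fads3 and Scd2 rose with log2 fold changes of 1.14 ± 0.18 and 1.01 ± 0.20. Acss2, which makes acetyl-CoA from acetate, fell from 87.1, 80.9 and 50.7 to 37.1 and 22.7 FPKM (log2 fold change -1.26 ± 0.31, adjusted p = 0.0484). The regulators did not pass: Srebf1 read 37.8, 47.9 and 23.1 against 73.4 and 78.3 FPKM (log2 fold change 1.10 ± 0.30, adjusted p = 0.0674). Mlxipl, the carbohydrate response factor ChREBP, read 56.7, 61.3 and 75.5 against 65.6 and 55.3 FPKM (log2 fold change -0.09 ± 0.20, adjusted p = 0.815).

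Of 22 genes of the PPAR gamma and triglyceride synthesis list, 7 rose and 0 fell (6 and 0 under median-of-ratios scaling). Lpl, lipoprotein lipase, which the adult hepatocyte makes little of, read 1.53, 2.69 and 3.29 against 21.4 and 24.9 FPKM (log2 fold change 2.81 ± 0.24, adjusted p = 0.0034). Its endothelial anchor Gpihbp1, from the lipoprotein list, read 7.97, 7.79 and 7.48 against 17.9 and 27.3 FPKM (log2 fold change 1.40 ± 0.20, adjusted p = 0.00884). Fabp4, a fatty acid carrier of fat cells and macrophages, read 3.09, 5.79 and 4.15 against 33.5 and 46.01 FPKM (log2 fold change 2.95 ± 0.25, adjusted p = 0.0034). Gpat3, an acyltransferase of triglyceride synthesis, read 0.4396, 0.6002 and 0.404 against 2.15 and 2.57 FPKM (log2 fold change 1.18 ± 0.15, adjusted p = 0.00684). Ucp2, a mitochondrial carrier, read 4.09, 5.799 and 3.72 against 15.7 and 29.5 FPKM (log2 fold change 2.04 ± 0.29, adjusted p = 0.00863). Pparg itself read 4.46, 5.26 and 2.25 against 10.1 and 8.53 FPKM but missed the threshold (log2 fold change 1.10 ± 0.28, adjusted p = 0.0591). Of 12 listed markers of fat cells 6 were tested, of which 2 rose, Cfd and Fabp4, and 0 fell (2 and 0 under median-of-ratios scaling). The markers Adipoq, Lep, Plin1 and Retn were listed at 0 in all 5 libraries.

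Among 26 targets of PPAR alpha, the receptor that switches on fat oxidation in fasting, 10 rose and 1 fell (6 and 1 under median-of-ratios scaling). Those that rose included the Cyp4a omega-hydroxylases. Cyp4a14 read 6.85, 3.95 and 0.718 against 88.8 and 44.1 FPKM (log2 fold change 3.97 ± 0.62, adjusted p = 0.0115). Cyp4a10 read 14.5, 15.6 and 3.34 against 91.5 and 47.9 FPKM (log2 fold change 2.697 ± 0.60, adjusted p = 0.0373). Cyp4a31 and Cyp4a32, close copies in the same array on chromosome 4, rose by log2 fold changes of 1.62 ± 0.29 and 1.26 ± 0.17 (adjusted p = 0.0189 and 0.00734). Their male-specific neighbour Cyp4a12a read 73.1, 104 and 68.5 against 50.3 and 39.3 FPKM (log2 fold change -0.84 ± 0.24, adjusted p = 0.0747), so 4 of these 5 named genes rose and Cyp4a12a lay lower without passing. Reads of these copies may be shared between them. Acot2, a mitochondrial thioesterase, read 1.65, 1.55 and 0.991 against 3.98 and 4.44 FPKM (log2 fold change 1.13 ± 0.17, adjusted p = 0.0108). Vnn1, a pantetheinase, read 9.28, 15.9 and 5.05 against 31.8 and 33.7 FPKM (log2 fold change 1.73 ± 0.39, adjusted p = 0.0396). Cpt1a and Pdk4, textbook genes of fat oxidation and fuel choice, did not pass: Cpt1a read 31.2, 37.3 and 22.5 against 50.7 and 49.8 FPKM (log2 fold change 0.74 ± 0.23, adjusted p = 0.098). Pdk4 read 1.66, 0.701 and 1.64 against 3.06 and 2.51 FPKM (log2 fold change 0.72 ± 0.23, adjusted p = 0.105). Of 25 oxidation and ketogenesis genes, 2 rose and 0 fell (0 and 0 under median-of-ratios scaling), which is near the background share. Their median log2 fold change was 0.45, against 0.21 for all tested genes (0.19 against -0.01 under that scaling). Of the 25, 24 lay above 0, where 76.7% of all tested genes did. By limma 12 of them had an unadjusted p below 0.05, against 2822 of all 10868 genes. The hormone gene Fgf21 read 3.18, 0.757 and 0.667 against 5.33 and 2.397 FPKM (log2 fold change 1.01 ± 0.45, adjusted p = 0.217).

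In each of the 2 apolipoprotein gene clusters described here 1 gene passed the test, Apoa4 on chromosome 9 and Apoc2 on chromosome 7, and whether it differed from its neighbours was not tested. On chromosome 9 (GRCm38) lie Apoa1 (46228580 to 46230466), Apoc3 (46232933 to 46235636), Apoa4 (46240696 to 46243459) and Apoa5 (46268633 to 46271919). Apoa4, a carrier of triglyceride-rich particles, read 75.8, 76.8 and 55.8 against 2144 and 2756 FPKM (log2 fold change 5.12 ± 0.23, adjusted p = 0.000457). Apoc3, an inhibitor of lipoprotein lipase on the opposite strand, read 2432, 1634 and 1195 against 1632 and 2206 FPKM (log2 fold change 0.17 ± 0.33, adjusted p = 0.771). Apoa1, the main HDL protein, read 10005, 7210.2 and 6809.6 against 7026 and 7572 FPKM (log2 fold change -0.11 ± 0.25, adjusted p = 0.804). Apoa5 read 300.0, 337 and 215 against 395 and 452 FPKM (log2 fold change 0.60 ± 0.24, adjusted p = 0.178). On this per-length scale the Apoa4 level was the lowest of the 4 with the normal diet and stood above those of Apoa5 and Apoc3 with the western diet. On chromosome 7 lie Apoc2 (19671579 to 19677941), Apoc4 (19678083 to 19681479), Apoc1 (19689481 to 19692660) and Apoe (19696109 to 19699188). Apoc2, the activator of lipoprotein lipase, read 15.9, 45.2 and 35.7 against 139.6 and 618 FPKM (log2 fold change 3.27 ± 0.67, adjusted p = 0.0281). The western diet libraries lay far apart: the log2 fold change was 4.34 without western diet library 1 and smaller, but still an increase, without library 2. Whether the call rested on the higher library cannot be decided, because leaving out either western diet library removed most calls among all genes. Apoc2 missed the threshold with median-of-ratios scaling (adjusted p = 0.0628), with robust eBayes (adjusted p = 0.05) and without normal diet library 2 (adjusted p = 0.0501). Apoc4, its neighbour on the same strand, read 967, 608 and 505 against 643 and 982 FPKM (log2 fold change 0.25 ± 0.33, adjusted p = 0.669). Apoc1 read 9798, 6577 and 4965 against 7856 and 11293 FPKM (log2 fold change 0.46 ± 0.34, adjusted p = 0.429). Apoe, the remnant ligand, read 11815, 10568 and 7346 against 18111 and 23109 FPKM and missed the threshold (log2 fold change 1.07 ± 0.28, adjusted p = 0.0594). Of all 25 apolipoprotein and lipoprotein enzyme genes, 3 rose (Apoa4, Apoc2 and Gpihbp1) and 0 fell (2 and 0 under median-of-ratios scaling).

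**Figure D2:**
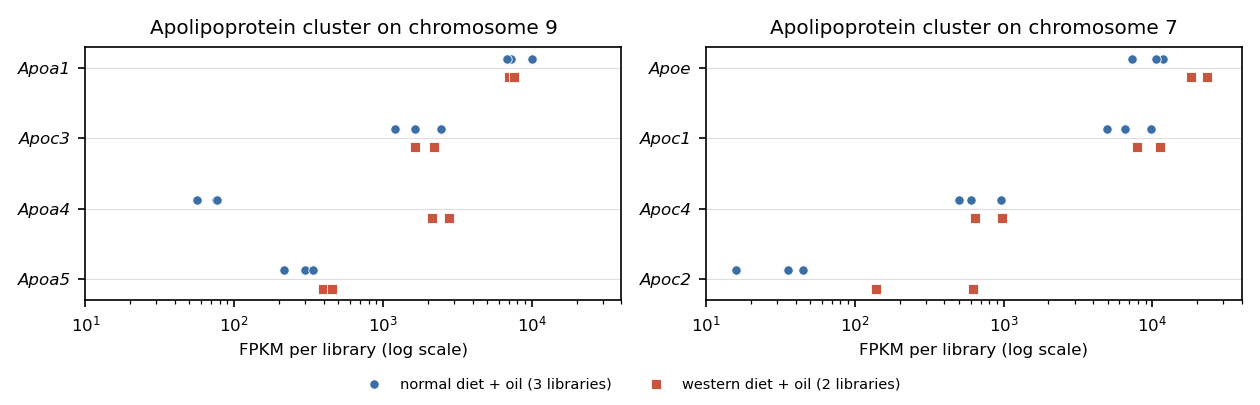
FPKM per library (log axis) of the 4 genes of each apolipoprotein cluster, with circles for the 3 normal diet + oil libraries and squares for the 2 western diet + oil libraries. Apoa4, Apoa5, Apoc2 and Apoe sit apart by diet, of which Apoa4 and Apoc2 passed the test, and Apoa1, Apoc3, Apoc1 and Apoc4 overlap.

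Sterol handling moved in both directions. Of 20 genes of LXR targets and sterol efflux, 5 rose and 1 fell (2 and 2 under median-of-ratios scaling). Abcg1, a cholesterol exporter of macrophages and other cells, read 0.325, 0.359 and 0.407 against 2.35 and 2.86 FPKM (log2 fold change 1.40 ± 0.15, adjusted p = 0.00539). Abcg5, an exporter of sterols into bile, read 19.03, 27.1 and 11.5 against 51.4 and 52.02 FPKM (log2 fold change 1.46 ± 0.32, adjusted p = 0.0369). Mylip, which marks lipoprotein receptors for breakdown, read 0.693, 0.925 and 1.22 against 2.896 and 2.67 FPKM (log2 fold change 0.97 ± 0.17, adjusted p = 0.0156). Stard4, a sterol carrier, fell from 11.7, 13.3 and 11.4 to 6.73 and 4.38 FPKM (log2 fold change -1.02 ± 0.19, adjusted p = 0.0223).

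Of 28 bile acid genes, 1 rose and 3 fell (0 and 3 under median-of-ratios scaling). Cyp7b1, of the alternative bile acid pathway, read 113, 89.1 and 172 against 22.5 and 22.7 FPKM (log2 fold change -2.36 ± 0.28, adjusted p = 0.00618). The bile acid sulfotransferase Sult2a8 read 208, 235 and 299.8 against 129 and 87.9 FPKM (log2 fold change -1.19 ± 0.25, adjusted p = 0.0312). Abcb4, which exports phospholipid into bile, read 32.6, 30.8 and 29.1 against 51.4 and 55.6 FPKM (log2 fold change 0.78 ± 0.16, adjusted p = 0.0273). The gatekeeper enzyme Cyp7a1 read 6.04, 8.26 and 8.71 against 12.3 and 8.96 FPKM (log2 fold change 0.42 ± 0.21, adjusted p = 0.262). Cyp8b1, which sets the cholic acid share, read 114, 65.99 and 104 against 117 and 62.9 FPKM (log2 fold change -0.10 ± 0.34, adjusted p = 0.881). The bile acid receptor gene Nr1h4 read 35.1, 39.6 and 29.7 against 39.3 and 33.4 FPKM (log2 fold change 0.07 ± 0.19, adjusted p = 0.852). Its target Nr0b2 read 38.7, 10.3 and 12.7 against 14.6 and 32.1 FPKM (log2 fold change 0.31 ± 0.57, adjusted p = 0.765).

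All libraries came from males, and with the western diet part of the male-biased transcripts fell and part of the female-biased transcripts rose. Of 25 tested male-biased genes, 11 fell and 0 rose, with a median log2 fold change of -1.08. Of 35 listed female-biased genes 16 were tested, of which 8 rose and 0 fell, with a median of 1.08. Under median-of-ratios scaling the counts were 13 lower of the male-biased list and 5 higher of the female-biased list, so the directions held. Serpina1e, a male-biased antitrypsin copy, read 7099.9, 5967 and 10575 against 1109.7 and 913 FPKM (log2 fold change -2.92 ± 0.29, adjusted p = 0.00448). Cyp2u1 read 8.999, 7.09 and 7.04 against 1.27 and 1.26 FPKM (log2 fold change -1.94 ± 0.16, adjusted p = 0.0034). Slco1a1, an organic anion transporter, read 59.6, 50.1 and 67.9 against 21.2 and 14.4 FPKM (log2 fold change -1.69 ± 0.23, adjusted p = 0.00707). Susd4, a complement regulator, read 7.45, 9.81 and 12.3 against 2.31 and 0.728 FPKM (log2 fold change -2.16 ± 0.31, adjusted p = 0.00919). In all of these the highest western diet library lay below the lowest normal diet library.

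On the female side, Cyp2b9 read 0, 1.61 and 0.286 against 6.46 and 5.57 FPKM (log2 fold change 2.22 ± 0.38, adjusted p = 0.0156). Cyp17a1, a steroid hydroxylase, read 6.38, 6.82 and 3.36 against 26.96 and 17.3 FPKM (log2 fold change 1.84 ± 0.31, adjusted p = 0.0142). Slc22a27, a transporter, read 0, 0.358 and 0 against 2.35 and 2.22 FPKM (log2 fold change 1.57 ± 0.19, adjusted p = 0.00618). Ntrk2, a neurotrophin receptor, was listed at 0 in all normal diet libraries, against 1.67 and 4.13 FPKM (adjusted p = 0.00913). Rtn4 read 12.1, 16.8 and 8.21 against 32.03 and 26.6 FPKM (log2 fold change 1.22 ± 0.28, adjusted p = 0.0413). Other female-biased genes did not follow: Cyp2c40 read 14.1, 6.31 and 10.1 against 6.65 and 5.18 FPKM (log2 fold change -0.64 ± 0.30, adjusted p = 0.24). Prlr, the prolactin receptor, read 12.2, 11.2 and 8.99 against 9.16 and 5.53 FPKM (log2 fold change -0.52 ± 0.23, adjusted p = 0.214). Of 42 tested Mup genes and pseudogenes, 37 had a log2 fold change below 0 and 8 fell. Mup12 read 5848, 11870.0 and 18403 against 1045 and 1258 FPKM (log2 fold change -3.24 ± 0.46, adjusted p = 0.00863). Mup7 read 10740.0, 14417 and 25924 against 2094 and 1529.5 FPKM (log2 fold change -3.15 ± 0.39, adjusted p = 0.00625). The Mup copies are nearly identical, so their reads may be split between them and single copies are uncertain. With the Mup genes removed and the libraries rescaled, 709 genes rose and 124 fell.

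**Figure D3:**
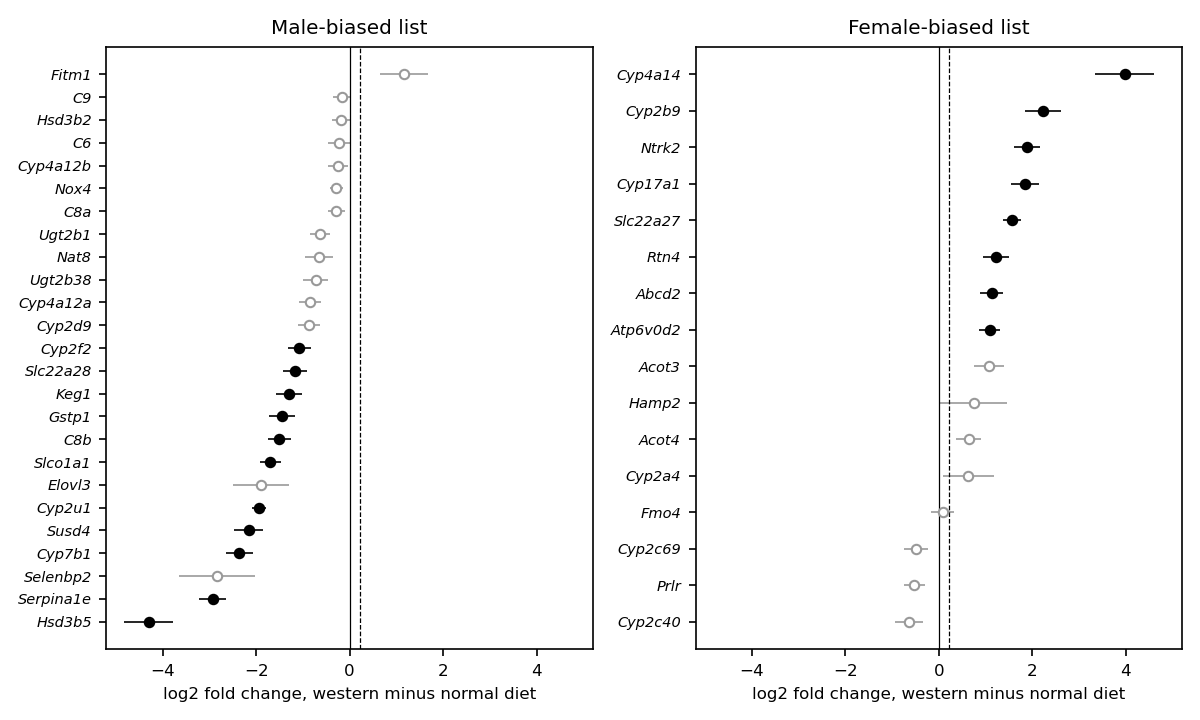
Log2 fold change (western minus normal diet, with SE) of the 25 tested male-biased and 16 tested female-biased liver genes. Filled points passed and open points did not, the dashed line is the median of all tested genes (0.21), and the points that passed lie to the left in the male-biased list and to the right in the female-biased list.

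Of 19 genes of the growth hormone axis itself, 1 rose and 2 fell (1 and 2 under median-of-ratios scaling), and 12 of the 19 lay below 0. Igf1, the hormone the liver makes in response to growth hormone, read 138, 115 and 119.7 against 111 and 114 FPKM (log2 fold change -0.14 ± 0.17, adjusted p = 0.649). Ghr, the growth hormone receptor, read 89.9, 91.8 and 83.1 against 77.96 and 65.7 FPKM (log2 fold change -0.30 ± 0.17, adjusted p = 0.326). Bcl6, a repressor of female-biased genes, read 3.26, 2.998 and 1.65 against 7.81 and 4.93 FPKM (log2 fold change 1.02 ± 0.27, adjusted p = 0.0591). Socs2, a feedback gene of the axis, read 0, 2.03 and 8.09 against 2.67 and 1.097 FPKM, with normal diet libraries at both ends of the range (log2 fold change -0.12 ± 0.82, adjusted p = 0.942). Lifr, the leukaemia inhibitory factor receptor, fell from 35.3, 32.1 and 64.2 to 10.4 and 9.28 FPKM (log2 fold change -1.98 ± 0.30, adjusted p = 0.0105). Serpina3k, a serine protease inhibitor of male liver, fell from 3689, 3118 and 4469 to 1639 and 1744 FPKM (log2 fold change -1.14 ± 0.23, adjusted p = 0.0263). Igfbp3, a carrier of Igf1 made mainly by non-hepatocytes, read 2.07, 2.81 and 1.49 against 5.695 and 7.75 FPKM (log2 fold change 1.31 ± 0.22, adjusted p = 0.0147).

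P450 genes changed in both directions. Of 21 tested P450 genes of the Cyp1 family and of Cyp2 subfamilies other than Cyp2c, 3 fell and 2 rose (5 and 1 under median-of-ratios scaling). Of 12 Cyp2c genes, 4 fell and 1 rose (5 and 0), and of 13 Cyp3a and other P450 genes, 3 fell and 2 rose (3 and 1). The last count holds 2 enzymes that are not drug-metabolizing, the sterol synthesis enzyme Cyp51, which fell, and the steroid hydroxylase Cyp17a1, which rose. Cyp1a2, which oxidizes caffeine and aromatic amines, read 289, 231 and 211 against 46.7 and 50.5 FPKM (log2 fold change -2.29 ± 0.20, adjusted p = 0.0034). Cyp2c29 read 514, 523 and 483 against 225 and 165 FPKM (log2 fold change -1.39 ± 0.20, adjusted p = 0.00962). Cyp2c54 read 77.1, 69.5 and 91.04 against 34.99 and 31.9 FPKM (log2 fold change -1.21 ± 0.18, adjusted p = 0.0105). Against them, Cyp2c38 read 5.604, 5.84 and 1.58 against 15.6 and 17.2 FPKM (log2 fold change 1.84 ± 0.42, adjusted p = 0.04), with normal diet library 3 the lowest. Cyp3a11, the main mouse counterpart of human CYP3A4, read 914, 565 and 648 against 337 and 389 FPKM and missed the threshold (log2 fold change -0.94 ± 0.25, adjusted p = 0.0651). Cyp2e1, which activates CCl4 and ethanol, read 2297, 2406 and 1789.6 against 1886 and 2159.6 FPKM (log2 fold change -0.09 ± 0.22, adjusted p = 0.831). Members of the Cyp2c and Cyp3a families are close copies, and reads may be shared between them.

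Of 21 glutathione transferases, 2 fell and 0 rose, and both were the neighbouring pi-class copies. Gstp1 read 1528, 963 and 1553 against 413 and 561 FPKM (log2 fold change -1.45 ± 0.28, adjusted p = 0.0246) and Gstp2 read 777, 443 and 662 against 163 and 227 FPKM (log2 fold change -1.66 ± 0.29, adjusted p = 0.0169). Of 24 UDP-glucuronosyl- and sulfotransferases, 3 fell and 0 rose, with Sult5a1 at 2.37, 3.55 and 3.75 against 0.874 and 0.695 FPKM (log2 fold change -1.23 ± 0.19, adjusted p = 0.011). Of 12 carboxylesterases, 2 fell and 0 rose, with Ces2a at 167, 123 and 113 against 31.02 and 37.7 FPKM (log2 fold change -1.92 ± 0.22, adjusted p = 0.00613). Targets of NRF2, the sensor of oxidants, moved the other way, with 5 of 24 higher and 0 lower (2 and 0 under median-of-ratios scaling). Gss, glutathione synthetase, read 19.1, 20.3 and 17.7 against 37.1 and 35.4 FPKM (log2 fold change 0.90 ± 0.15, adjusted p = 0.0156). Nqo1, a quinone reductase, read 2.69, 2.53 and 1.69 against 4.83 and 5.01 FPKM (log2 fold change 0.86 ± 0.18, adjusted p = 0.0299). Hmox1, heme oxygenase, read 10.2, 8.004 and 4.78 against 21.4 and 37.1 FPKM (log2 fold change 1.80 ± 0.34, adjusted p = 0.0212).

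Genes of both hepatocyte zones changed in part. Among 17 pericentral genes, which mark hepatocytes around the central vein, 4 rose and 1 fell (2 and 1 under median-of-ratios scaling). Glul, glutamine synthetase, read 200.1, 221 and 174 against 352 and 339.8 FPKM (log2 fold change 0.80 ± 0.19, adjusted p = 0.0418). Rhbg, an ammonium transporter, read 1.899, 3.14 and 2.07 against 5.56 and 7.22 FPKM (log2 fold change 1.14 ± 0.21, adjusted p = 0.0185). Slc13a3, a dicarboxylate carrier, read 3.63, 4.59 and 3.05 against 8.33 and 12.4 FPKM (log2 fold change 1.25 ± 0.22, adjusted p = 0.0166). The pericentral Cyp1a2 fell as above. Among 22 periportal genes, 3 fell and 0 rose (3 and 0 under median-of-ratios scaling), with a median log2 fold change of -0.12 and 16 of the 22 below 0, where 76.7% of all tested genes lay above 0. Hal, which breaks down histidine, read 29.98, 38.8 and 43.5 against 15.3 and 10.2 FPKM (log2 fold change -1.49 ± 0.24, adjusted p = 0.0122). Cyp2f2 read 250.2, 319 and 417 against 149.7 and 154 FPKM (log2 fold change -1.08 ± 0.25, adjusted p = 0.0402). Cdh1, E-cadherin, read 2.94, 2.97 and 6.06 against 1.33 and 0.973 FPKM (log2 fold change -1.16 ± 0.28, adjusted p = 0.046). Of 40 genes of amino acid breakdown 0 passed in either direction by limma (8 at an unadjusted p below 0.05, and 0 higher and 2 lower under median-of-ratios scaling), and of 25 genes of the methionine and one-carbon cycle 1 rose and 1 fell, the latter being Cth, cystathionine lyase, at 105, 87.9 and 110.1 against 58.4 and 47.2 FPKM (log2 fold change -0.92 ± 0.19, adjusted p = 0.0297).

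Few stress response genes passed. Of 34 genes of ER stress and the integrated stress response, the program switched on by the factor ATF4, 4 rose and 1 fell (2 and 1 under median-of-ratios scaling). The share that rose was near the background share of 9.16%. The median log2 fold change of the list was 0.19, against 0.21 for all tested genes. Nupr1, a stress-induced nuclear protein, read 0.882, 1.44 and 0.567 against 5.59 and 5.598 FPKM (log2 fold change 1.77 ± 0.21, adjusted p = 0.00613). Atf3, an early stress factor, read 0.924, 0.611 and 0.4298 against 2.27 and 4.28 FPKM (log2 fold change 1.34 ± 0.24, adjusted p = 0.0189). Ddit3, the death-linked factor CHOP, read 5.16, 6.28 and 6.85 against 10.6 and 13.7 FPKM (log2 fold change 0.89 ± 0.18, adjusted p = 0.029). Ddit4, an mTOR inhibitor, read 8.53, 5.89 and 5.07 against 13.9 and 13.1 FPKM (log2 fold change 0.98 ± 0.22, adjusted p = 0.0357). Asns, asparagine synthetase and a standard target of ATF4, went the other way, with 4.09, 4.05 and 8.11 against 1.35 and 0.558 FPKM (log2 fold change -1.69 ± 0.31, adjusted p = 0.0203). Hspa5, the main ER chaperone, read 135, 123 and 232 against 216 and 211 FPKM, inside the normal diet range (log2 fold change 0.44 ± 0.29, adjusted p = 0.388). Gdf15, a stress hormone, read 46.004, 4.804 and 2.61 against 22.02 and 40.9 FPKM, also overlapping (log2 fold change 1.64 ± 1.01, adjusted p = 0.354).

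Asns, Atf3 and Nupr1 share a short element that ATF4 is known to bind, so its letters are shown for the list. The search used the 250 bases before each RefSeq start (GRCm38.p6), on both strands, for TGATGNAA. Of 31 tested list members with a promoter entry, 6 held it (19.4%), against 3.91% of 27025 genes and 2.55% of 7844 tested genes with an entry, and the gene that fell and genes that rose both had it. It lay in 2.75% of the genes that rose and in 4.29% of those that fell. The windows are read on the strand of the motif, which is in capitals, with 10 bases on each side, and the motif began 23 to 193 bases before the start. The motif matched in Asns (chr6:7693215-7693242), Atf3 (chr1:191183426-191183453), Nupr1 (chr7:126625563-126625590), Chac1 (chr2:119351039-119351066), Fgf21 (chr7:45615612-45615639) and Herpud1 (chr8:94386307-94386334):
Asns, fell: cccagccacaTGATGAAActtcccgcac
Atf3, rose: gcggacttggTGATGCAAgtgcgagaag
Nupr1, rose: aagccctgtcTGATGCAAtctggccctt
Chac1, did not pass: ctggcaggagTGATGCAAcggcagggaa
Fgf21, did not pass: cctggacggaTGATGCAAtgggggggtc
Herpud1, did not pass: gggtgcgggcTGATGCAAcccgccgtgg
Asns lies on the minus strand and was the 1 gene of the 6 with the motif on its own strand. A match of letters is a description and not a bound site. Chac1, a glutathione-degrading target of the same factor, read 2.29, 1.17 and 0.511 against 3.17 and 6.59 FPKM (log2 fold change 1.35 ± 0.37, adjusted p = 0.0711). Herpud1, of ER-associated breakdown, read 251, 179 and 131 against 176 and 216 FPKM (log2 fold change 0.11 ± 0.29, adjusted p = 0.844).

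Growth and damage genes rose in part. Under median-of-ratios scaling 4.43% of all tested genes were called higher, and the counts of p53 targets and cell cycle genes were near that share. Of 18 p53 targets, 3 rose and 0 fell (1 and 0 under median-of-ratios scaling), with Cdkn1a, the cell cycle inhibitor p21, at 2.94, 1.92 and 5.25 against 13.97 and 12.3 FPKM (log2 fold change 1.76 ± 0.31, adjusted p = 0.0165) and Btg2 at 4.54, 1.95 and 1.15 against 13.1 and 31.5 FPKM (log2 fold change 2.71 ± 0.47, adjusted p = 0.0168). Of 21 immediate early genes, 7 rose and 0 fell (3 and 0 under median-of-ratios scaling), with Klf6, a zinc finger factor, at 1.01, 0.864 and 0.766 against 4.83 and 5.05 FPKM (log2 fold change 1.66 ± 0.14, adjusted p = 0.0034) and Fos at 1.32, 0.674 and 0 against 3.07 and 4.07 FPKM (log2 fold change 1.53 ± 0.34, adjusted p = 0.0369). Of 19 cell cycle genes, 7 rose and 0 fell (1 and 0 under median-of-ratios scaling). Ccnd1, cyclin D1, read 2.45, 3.26 and 1.62 against 9.38 and 13.3 FPKM (log2 fold change 1.85 ± 0.25, adjusted p = 0.00707). Pcna, the DNA clamp, read 8.72, 8.24 and 7.66 against 13.6 and 13.3 FPKM (log2 fold change 0.65 ± 0.14, adjusted p = 0.0357). Mki67, a marker of dividing cells, was below the filter, at 0 throughout the normal diet group, against 0.5204 and 0.294 FPKM. Of 8 tested genes of fetal or tumour-associated liver, 6 rose (3 under median-of-ratios scaling), among them H19, an imprinted RNA of fetal liver, listed at 0 in every normal diet library, against 3.17 and 3.24 FPKM (adjusted p = 0.00237). Afp, the fetal albumin, was below the filter, at 0.335 to 0.571 FPKM with the normal diet and 0.718 and 0.798 with the western diet.

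Acute phase and plasma protein genes changed gene by gene. Of 25 acute phase genes, 4 rose and 0 fell (1 and 0 under median-of-ratios scaling). Orm3, an orosomucoid copy, read 3.32, 11.4 and 2.43 against 24.1 and 135 FPKM (log2 fold change 3.36 ± 0.79, adjusted p = 0.0428). Steap4, a metalloreductase, read 15.6, 28.3 and 19.05 against 48.6 and 50.8 FPKM (log2 fold change 1.25 ± 0.25, adjusted p = 0.0282). Cp, ceruloplasmin, read 160.0, 203 and 191 against 327 and 343 FPKM (log2 fold change 0.86 ± 0.19, adjusted p = 0.0347). The classic reactants varied widely within a diet and did not pass: Saa1 read 1116, 1923 and 123 against 1384 and 3828 FPKM (log2 fold change 1.84 ± 1.11, adjusted p = 0.348). Orm2 read 96.1, 297 and 37.01 against 259 and 590.4 FPKM (log2 fold change 1.93 ± 0.81, adjusted p = 0.193). Lcn2, lipocalin-2, read 35.7, 124 and 8.05 against 284 and 786 FPKM (log2 fold change 3.77 ± 1.02, adjusted p = 0.0657). The metal-binding Mt1 read 323, 90.8 and 8.28 against 197 and 818 FPKM (log2 fold change 2.63 ± 1.39, adjusted p = 0.287). Hamp, the iron hormone hepcidin, read 1141, 908 and 278 against 135 and 499.5 FPKM (log2 fold change -1.34 ± 0.73, adjusted p = 0.301). In Saa1, Orm2 and Lcn2 normal diet library 3 was the lowest and western diet library 2 the highest of the 5 libraries.

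Of 27 serpins, 4 rose and 3 fell (4 and 5 under median-of-ratios scaling). Serpinh1, the collagen chaperone, read 2.76, 3.34 and 3.42 against 9.98 and 13.01 FPKM (log2 fold change 1.58 ± 0.17, adjusted p = 0.00557). Serpina3g read 1.497, 1.71 and 1.26 against 6.54 and 12.9 FPKM (log2 fold change 2.05 ± 0.26, adjusted p = 0.00682). Besides Serpina1e and Serpina3k, Serpine2, a protease inhibitor also called nexin-1, fell from 10.02, 5.76 and 10.7 to 2.57 and 2.38 FPKM (log2 fold change -1.46 ± 0.25, adjusted p = 0.0161). Of 31 complement genes, 9 rose and 1 fell (6 and 1). The C1q chains, which macrophages make, rose: C1qa read 20.998, 29.1 and 30.4 against 116 and 251 FPKM (log2 fold change 2.64 ± 0.34, adjusted p = 0.00691). C8b, a pore component made by hepatocytes, fell from 106, 101 and 157 to 45.6 and 37.4 FPKM (log2 fold change -1.501 ± 0.24, adjusted p = 0.0127). Of 26 coagulation genes, 2 rose and 1 fell (0 and 2).

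Antigen presentation genes rose. Of 16 listed genes of MHC class II and its partners 9 were tested and these 9 rose (9 under median-of-ratios scaling), with a median log2 fold change of 2.41, and the other 7 were below the filter. Cd74, the invariant chain, read 26.5, 27.7 and 23.6 against 115 and 222 FPKM (log2 fold change 2.58 ± 0.28, adjusted p = 0.00575). H2-Ab1, a class II beta chain, read 11.3, 10.5 and 6.999 against 41.7 and 71.3 FPKM (log2 fold change 2.41 ± 0.29, adjusted p = 0.00618). In both genes the western diet libraries lay well clear of all normal diet libraries. Of 16 class I genes, 3 rose and 0 fell (0 and 0 under median-of-ratios scaling). Of 38 interferon response genes, 10 rose and 0 fell (5 and 0). Ubd, a ubiquitin-like modifier, read 0.438, 0.733 and 0 against 8.19 and 11.1 FPKM (log2 fold change 2.96 ± 0.26, adjusted p = 0.0034). Ifit1, a standard type I interferon target, read 1.48, 2.21 and 1.096 against 2.72 and 2.48 FPKM (log2 fold change 0.49 ± 0.20, adjusted p = 0.187). Of 16 chemokines and receptors, 7 rose and 0 fell, among them Ccl2, which draws monocytes, at 0, 0.517 and 0 against 3.66 and 3.97 FPKM (log2 fold change 2.07 ± 0.22, adjusted p = 0.00553) and Ccl5, which draws T cells, at 0.958, 0.582 and 0.963 against 4.22 and 8.68 FPKM (log2 fold change 1.96 ± 0.27, adjusted p = 0.00782). Of 33 Fc receptor and phagocyte signalling genes, 32 rose and 0 fell, with Fcgr4 at 1.16, 1.82 and 2.89 against 24.8 and 23.3 FPKM (log2 fold change 3.13 ± 0.25, adjusted p = 0.0034).

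Letters that the myeloid factor PU.1 is known to bind, GAGGAAGT, lay in the 250 bases before the start of 3 of 19 of these phagocyte genes with a promoter entry (15.8%), in 5.23% of the genes that rose, in 0 of 70 that fell, in 2.88% of 7844 tested genes and in 2.79% of 27025 genes (both strands). It lay in 0 of 5 MHC class II genes with an entry. The window with 10 bases on each side of the motif (capitals) is shown for Fcgr4 (chr1:171018892-171018919), which had the largest increase of the list, and Pirb (chr7:3720485-3720512), an inhibitory receptor that read 0.422, 0.997 and 0.872 against 4.85 and 8.77 FPKM (log2 fold change 2.11 ± 0.26, adjusted p = 0.00625):
Fcgr4, rose: gactagaagaGAGGAAGTaaatagcctt
Pirb, rose: tcacaccattGAGGAAGTcagagcatgg

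Several marker lists of non-hepatocytes rose with these immune genes. The 11 Kupffer cell markers, 9 of which rose, summed to 108, 138 and 183 FPKM with the normal diet and 437 and 810 with the western diet. Marco, a scavenger receptor of these cells, read 1.39, 3.26 and 5.44 against 35.1 and 69.98 FPKM (log2 fold change 3.65 ± 0.45, adjusted p = 0.00625). The 14 neutrophil markers summed to 10.1 to 133 and to 307 and 834 FPKM, mostly from Lcn2, which hepatocytes also make. Of the 4 that were tested 3 rose (1 under median-of-ratios scaling), including S100a9 at 2.96, 5.27 and 1.32 against 12.4 and 22.96 FPKM (log2 fold change 2.21 ± 0.43, adjusted p = 0.0246). Of the 14 listed, 9 were at 0 in all normal diet libraries and 2 in all western diet libraries. These 2, Cxcr2 and Mmp8, were listed at 0 in all 5 libraries. T and NK cell markers were low, with sums of 2.13 to 3.76 FPKM with the normal diet and 6.73 and 16.0 with the western diet, and Cd3d, Cd5 and Prf1 were listed at 0 throughout. Of 24 listed 2 were tested and 1 rose (0 under median-of-ratios scaling): Trbc1, a T cell receptor constant chain, read 0.458, 0 and 0.445 against 1.39 and 1.47 FPKM (log2 fold change 0.92 ± 0.21, adjusted p = 0.0389). The 16 B and plasma cell markers summed to 36.0 to 136 FPKM with the normal diet and to 178 and 183 with the western diet. Of the 5 that were tested 2 rose (1 under median-of-ratios scaling), namely Ly6d and Cd79b, a chain of the B cell receptor, which read 0.428, 0.454 and 0 against 1.51 and 1.35 FPKM (log2 fold change 0.93 ± 0.21, adjusted p = 0.0374). Ly6d made up a large part of the western diet sums of this list, and without it the sums of the diets overlap. Ms4a1, Pax5 and Blk were listed at 0 in all 5 libraries. The part of cell numbers in the gene changes was not tested.

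Stellate and endothelial markers rose as well. Of 18 tested stellate cell and myofibroblast markers, 15 rose and 0 fell (7 and 0 under median-of-ratios scaling), and the 23 listed summed to 78.9 to 99.6 FPKM with the normal diet and to 226 and 289 with the western diet. Lrat, the retinol esterifying enzyme of stellate cells, read 0.982, 0.856 and 0.947 against 3.07 and 2.52 FPKM (log2 fold change 0.97 ± 0.14, adjusted p = 0.00993). Dcn, the matrix protein decorin, read 27.02, 26.6 and 23.2 against 72.4 and 77.4 FPKM (log2 fold change 1.51 ± 0.16, adjusted p = 0.00553). Des, desmin, read 0.913, 0.553 and 0.978 against 2.02 and 3.29 FPKM (log2 fold change 1.00 ± 0.21, adjusted p = 0.0295). Of 30 extracellular matrix genes, 19 rose and 0 fell (11 and 0). Postn, periostin, read 0.576, 0.908 and 0.768 against 5.26 and 6.89 FPKM (log2 fold change 2.01 ± 0.17, adjusted p = 0.0034). Col4a1, of the basement membrane, read 0.923, 1.91 and 1.96 against 5.66 and 5.25 FPKM (log2 fold change 1.34 ± 0.22, adjusted p = 0.0131). The fibrillar Col1a1, whose normal diet libraries already differed widely, read 0.384, 2.68 and 0.284 against 2.42 and 4.06 FPKM but missed the threshold (log2 fold change 1.15 ± 0.46, adjusted p = 0.175). Of 19 endothelial markers, 10 rose and 0 fell (3 and 0), with Plvap, the diaphragm protein of fenestrae, at 8.63, 6.93 and 6.64 against 25.8 and 33.4 FPKM (log2 fold change 1.86 ± 0.19, adjusted p = 0.00458) and Lyve1, a sinusoidal hyaluronan receptor, at 0.547, 0.954 and 0.7501 against 3.78 and 4.41 FPKM (log2 fold change 1.55 ± 0.16, adjusted p = 0.00539). Of the 5 tested bile duct markers 3 rose (1 under median-of-ratios scaling). The keratins Krt8 and Krt18, which hepatocytes share, rose, with Krt8 at 106, 111 and 77.4 against 206 and 265 FPKM (log2 fold change 1.26 ± 0.23, adjusted p = 0.0194) and Krt18 at 128, 115 and 98.6 against 204 and 299 FPKM (log2 fold change 1.11 ± 0.23, adjusted p = 0.0298). Spp1, osteopontin, read 19.2, 39.1 and 17.3 against 58.4 and 94.8 FPKM (log2 fold change 1.62 ± 0.38, adjusted p = 0.0428). The duct-defining Krt19, Epcam and Sox9 were below the filter.

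The cell skeleton and the lysosome were among the lists with the most increases. Of 32 actin cytoskeleton genes, 21 rose and 0 fell (17 and 0 under median-of-ratios scaling), with a median log2 fold change of 1.22. Anxa2, a membrane-binding annexin, read 3.23, 7.37 and 3.296 against 48.5 and 49.2 FPKM (log2 fold change 3.22 ± 0.31, adjusted p = 0.00431). Anxa5 read 22.8, 23.7 and 18.5 against 112 and 106 FPKM (log2 fold change 2.29 ± 0.18, adjusted p = 0.0034). Actg1, cytoplasmic gamma-actin, read 21.2, 19.2 and 19.3 against 69.9 and 63.5 FPKM (log2 fold change 1.69 ± 0.16, adjusted p = 0.00395). Of 10 tubulins and their partners, 6 rose (1 under median-of-ratios scaling). Of 39 lysosome genes, 18 rose and 0 fell (9 and 0), with Cd63, a membrane protein of late endosomes and exosomes, at 1.18, 2.84 and 1.06 against 17.2 and 25.02 FPKM (log2 fold change 3.08 ± 0.31, adjusted p = 0.00448) and Lgmn, a protease, at 12.6, 17.8 and 17.8 against 51.7 and 84.05 FPKM (log2 fold change 1.99 ± 0.26, adjusted p = 0.00701). Macrophages are rich in transcripts of both lists, and the share that came from them was not tested.

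Several basic programs had no member that passed. Of 37 genes of respiratory complex I, 40 of complexes II to V and 13 encoded in mitochondria, 0 passed in either direction by limma, with 0, 0 and 0 at an unadjusted p below 0.05. Of 51 cytosolic ribosome genes 0 passed (3 unadjusted), as did 0 of 15 core clock genes (1), 0 of 11 clock output genes (1), 0 of 30 hepatocyte transcription factors (4) and 0 of 14 autophagy genes (1). Under median-of-ratios scaling 0 members of these lists passed too. The intervals around single genes are wide with 5 libraries, so a gene that did not pass is not shown to be unaffected. Per2 read 1.71, 2.85 and 1.302 against 2.02 and 2.805 FPKM (log2 fold change 0.23 ± 0.24, adjusted p = 0.583). Nr1d1 read 14.3, 21.5 and 7.64 against 15.9 and 11.3 FPKM (log2 fold change 0.01 ± 0.39, adjusted p = 0.995).

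**Figure D4:**
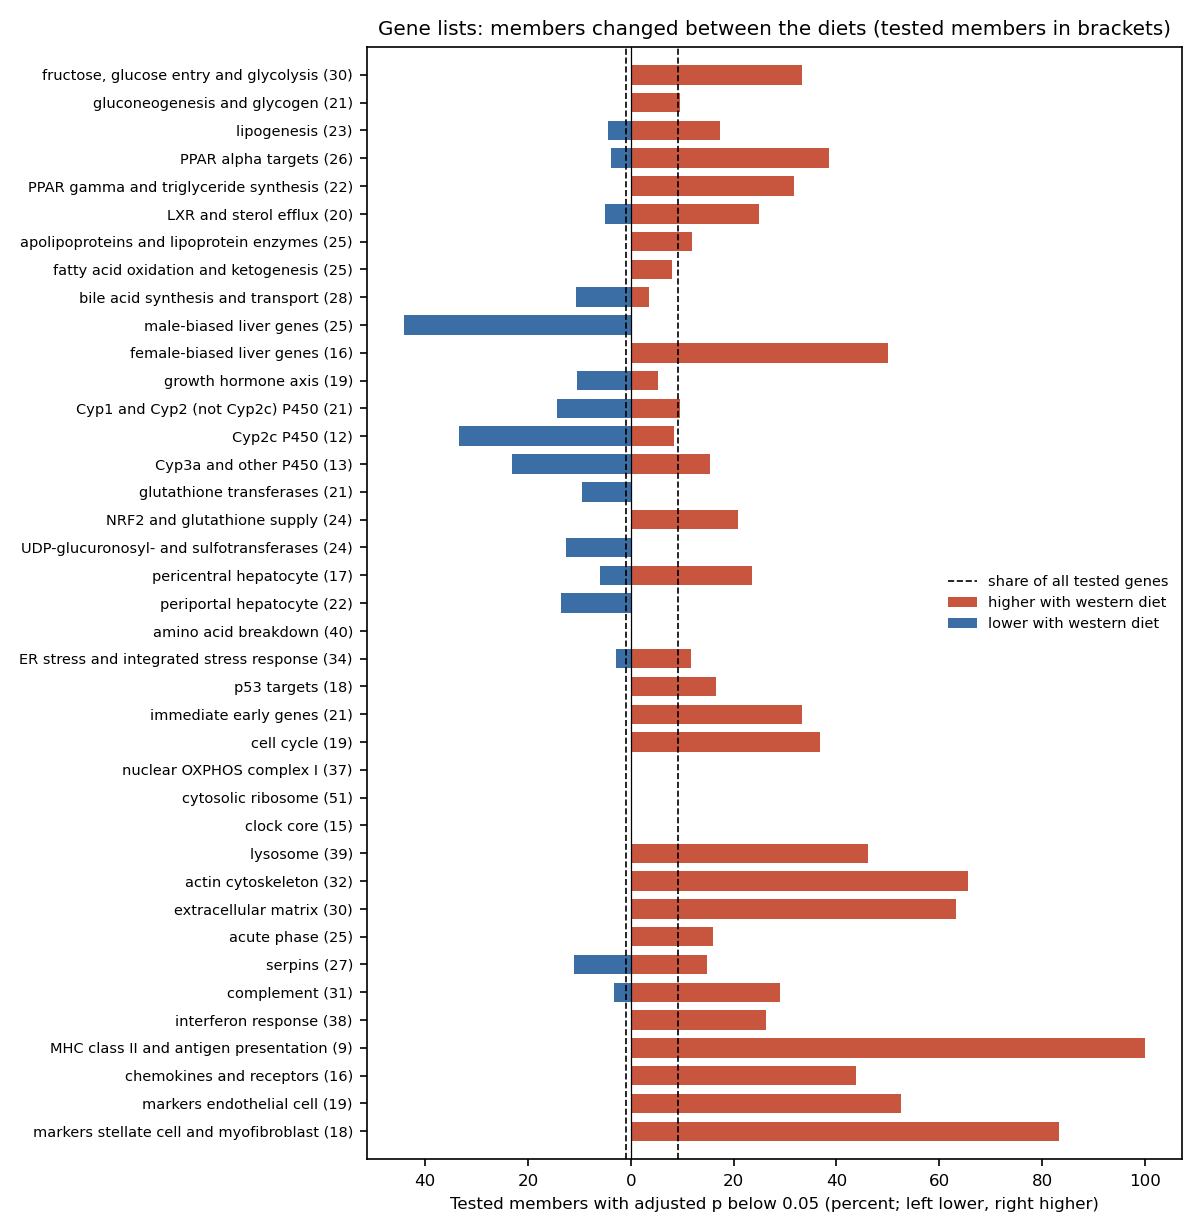
Percent of the tested members of 39 gene lists that passed, to the right for members higher and to the left for members lower with the western diet, with the number of tested members in brackets and dashed lines at the shares of all tested genes (9.16% and 1.00%). The male-biased list reaches furthest to the left and the MHC class II list furthest to the right.

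The diet effect was also read in mice injected with CCl4, in 1 western diet + CCl4 library against 2 normal diet + CCl4 libraries, none of which is shared with the comparison above. Of the 995 genes that rose with oil, 361 stood above both normal diet libraries there (36.3%, against 23.2% of all tested genes), 100 stood below both, and 534 lay between them. Of the 109 that fell with oil, 62 stood below both (56.9%, against 39.7% of all tested genes) and 19 above. With CCl4, the neutrophil protein gene S100a9 read 3.91 and 3.63 FPKM in the normal diet libraries and 267 in the western diet library, and the test of the difference from the diet effect with oil, which is described at the end, did not pass (adjusted p = 0.189). Cyp1a2 read 286 and 179 against 29.5 FPKM. Apoa4 read 570.0 and 367 against 2416 FPKM, and Cyp4a14 read 51.1 and 63.7 against 11.4, the opposite order to that with oil. The difference between the diet effects with CCl4 and with oil was tested over all 8 libraries and passed for 7 of 11514 genes (0.0608%, limma, with 1126 genes at an unadjusted p below 0.05), with the lone western diet + CCl4 library assumed to vary like the others. Under median-of-ratios scaling 0 passed, and the count was 0 without normal diet + CCl4 library 1 and 168 without normal diet + CCl4 library 2.

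**Figure D5:**
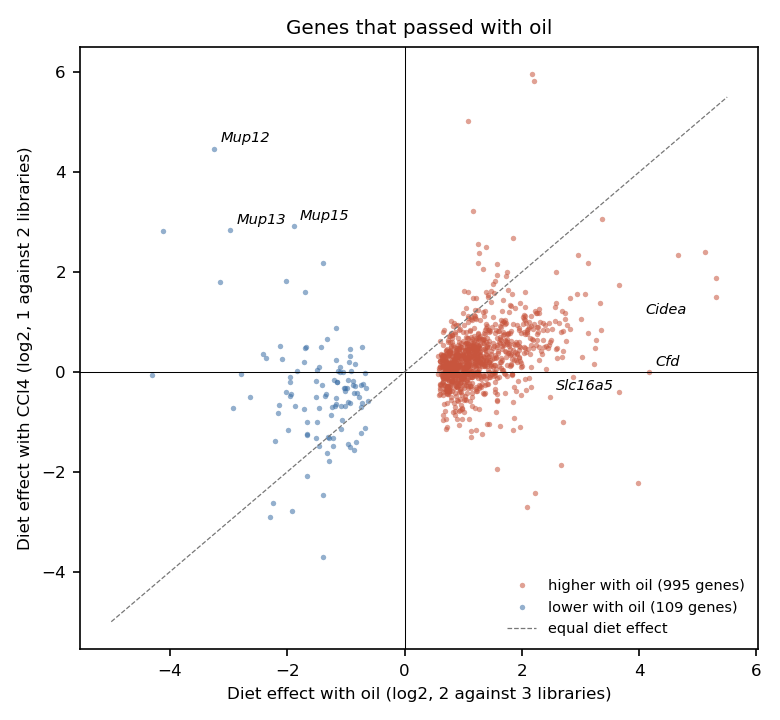
Diet effect with oil (horizontal, log2, 2 against 3 libraries) and with CCl4 (vertical, log2, 1 against 2 libraries) for the genes that passed with oil. With CCl4, 685 of the 995 genes higher with oil lay above 0, against 4387 of all 10868 tested genes, and 77 of the 109 genes lower with oil lay below 0, against 6464 of all tested genes. The 6 labelled genes passed the test of the difference.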

How the data were processed

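RNA-seq of mouse liver (TruSeq Stranded mRNA kit) was read from 1 table of FPKM values that the authors deposited for 8 libraries. The submitters' processing notes list StringTie 2.1.0 and HISAT2 2.2.1, besides cutadapt 3.7 and FastQC 0.11.9, without their roles, and the build GRCm38. No source used here says whether counting used the strand. FPKM keeps no read counts, so the depth is unknown and no count test was run. The 5 oil libraries had FPKM sums of 542290 to 612747.

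Genes reaching an FPKM of 1 in 2 or more of the 5 libraries were compared on log2(FPKM + 1), which understates changes of low genes, with limma 3.58.1 in R 4.3.3 (two-sided, mean-variance trend, 3 residual degrees of freedom) and Benjamini-Hochberg adjustment over all 10868 genes. The procedure was tested on simulated data. Median-of-ratios scaling, the Mup genes removed, other pseudocounts and filters, all 8 libraries in 1 fit, a replicate block and each library left out were tried. The comparison and the 72 gene lists were chosen with earlier results of these data known. Named genes are the 12 largest increases and the 12 largest decreases that passed without overlap (no predicted genes and at most 2 Mup copies), members of each list with the smallest p, and a fixed set of regulators, and further genes were chosen after their values were seen. Not every gene that this rule takes is reported here. Promoter letters came from RefSeq (GRCm38.p6), with entries for 7844 of 10863 tested symbols, and gene positions from GENCODE M21.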

Additional observations from a re-analysis of the deposited data

Results flagged for a closer look

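The diet effect differed between mice injected with CCl4 and with oil for 7 genes, by a limma test of the difference over all 8 libraries. Differences are the diet effect with CCl4 minus that with oil, on the log2(FPKM + 1) scale. The major urinary protein genes Mup12, Mup13 and Mup15, whose reads may be shared between copies, differed by 7.71 ± 0.72, 5.81 ± 0.67 and 4.804 ± 0.48 (SE; limma adjusted p = 0.0286, 0.0434 and 0.0286). With oil, Mup12 read 5848, 11870.0 and 18403 against 1045 and 1258 FPKM for the normal and western diet. With CCl4 it read 173 and 191 against 4049 FPKM. Its level was thus lower with the western diet under oil and higher with it under CCl4. Camp, an antimicrobial peptide of neutrophils, differed by 3.82 ± 0.39 (limma adjusted p = 0.0286). It was at 0 in all 5 normal diet libraries. The western diet + oil libraries held 0.37 and 1.23 FPKM, and the western diet + CCl4 library held 23.8.

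Cidea, Cfd and Slc16a5, a monocarboxylate transporter relative, had differences of -3.82 ± 0.37, -4.17 ± 0.47 and -2.97 ± 0.34 (limma adjusted p = 0.0286, 0.0434 and 0.0434). Cidea was at 0 in both normal diet + CCl4 libraries and at 1.81 FPKM in the western diet + CCl4 library, and Cfd was at 0 in all 3. Slc16a5 read 6.58 and 7.61 FPKM with the normal diet and CCl4 and 4.73 with the western diet and CCl4. The count was 3 without normal diet + oil library 1 or 2, 1 without western diet + oil library 1 or 2, 0 without normal diet + CCl4 library 1 and 168 without normal diet + CCl4 library 2. The western diet + CCl4 group is 1 library, which the test assumed to vary like the others.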

How the results depend on the processing

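The 134 named genes that passed had the same direction under every alternative that gave a value, as did all 1104 genes that passed. The alternatives reuse libraries of the main fit, so this is no independent check. Of the 134 genes, 96 passed with median-of-ratios scaling and 81 with all 8 libraries in 1 fit. The number of genes higher, 995, was 479 with median-of-ratios scaling, 243 with a mean FPKM of at least 5, which tests fewer genes, and 439 with all 8 libraries, and 3 to 832 with each library left out. The number lower, 109, was 66 with a mean FPKM of at least 5 and 69 with all 8 libraries, and 2 to 120 with each library left out. The number of genes whose diet effect differed with CCl4, 7, was 3 with a pseudocount of 0.1, 17 with no filter, 3 with a mean FPKM of at least 5, 13 with a common FPKM sum, 0 with median-of-ratios scaling and 2 without the Mup genes, and 0 to 168 with each library left out. The cause of these shifts was not tested.

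Deviations of same-numbered libraries from their diet means correlated at -0.287 and -0.0107. With 2 western diet libraries these deviations mirror each other, so the correlations cannot decide whether the numbers pair the libraries. A fit with the replicate block called 869 genes higher and 152 lower. Some log2 fold changes of genes that did not pass changed sign, and the cause was not tested. With median-of-ratios scaling these were Apoc3 -0.093, Apoc4 -0.016, Herpud1 -0.16, Nr1d1 -0.24, Nr1h4 -0.19 and Slc2a2 -0.19. With the replicate block these were Apoc3 -0.072, Arntl 0.77, Dbp -0.46, Herpud1 -0.12, Mlxipl 0.031, Nr1d1 -0.36, Nr1h4 -0.039, Slc2a2 -0.26, Slc2a5 -0.024 and Socs2 0.67. At a pseudocount of 0.1 these were Arntl 1.07 and Socs2 0.60. With a common FPKM sum these were Arntl 0.018, Cyp2e1 0.015, Cyp8b1 0.0036, Mlxipl 0.017 and Pck1 0.0097. Without the Mup genes these were Herpud1 -0.038, Nr1d1 -0.13, Nr1h4 -0.076 and Slc2a2 -0.073. With each library left out, log2 fold changes ran from -0.22 to 0.058 for Apoa1, -0.072 to 0.44 for Apoc3, -0.054 to 0.56 for Apoc4, -0.43 to 0.34 for Arntl, -0.22 to 0.0086 for Cyp2e1, -0.54 to 0.35 for Cyp8b1, -0.46 to 2.11 for Dbp and -0.12 to 0.35 for Herpud1. They ran from -0.21 to 0.035 for Mlxipl, -0.23 to 0.87 for Nr0b2, -0.36 to 0.33 for Nr1d1, -0.046 to 0.18 for Nr1h4, -0.21 to 0.067 for Pck1, -0.26 to 0.28 for Slc2a2, -0.024 to 0.32 for Slc2a5 and -0.92 to 0.67 for Socs2. With 2 western diet libraries and unknown depth, small differences and low genes cannot be resolved.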

Other observations

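Red cell transcripts were higher with the western diet. Of 6 tested erythroid markers 3 rose and 0 fell (0 and 0 under median-of-ratios scaling), and the list summed to 235, 298 and 354 FPKM with the normal diet and 934 and 560 with the western diet. Hba-a1, an alpha-globin gene with a near-identical copy, read 55.7, 75.2 and 79.6 against 238 and 149 FPKM (log2 fold change 1.43 ± 0.27, adjusted p = 0.0207). Hbb-bs, a beta-globin gene, read 55.8, 72.8 and 101 against 279.8 and 161 FPKM (log2 fold change 1.502 ± 0.33, adjusted p = 0.035). Slc4a1, a red cell membrane protein, was listed at 0 in all 5 libraries. Of 17 sphingolipid genes 5 rose and 0 fell (0 and 0 under median-of-ratios scaling), with Sptlc2, a subunit of the first enzyme of the pathway, at 1.17, 1.56 and 1.19 against 2.83 and 2.87 FPKM (log2 fold change 0.74 ± 0.15, adjusted p = 0.0259) and Cers6, a ceramide synthase, at 0.508, 0.5899 and 0.522 against 1.18 and 1.897 FPKM (log2 fold change 0.71 ± 0.17, adjusted p = 0.0488).

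Among retinoid genes, Rdh11, a retinal reductase, fell from 21.3, 19.1 and 13.9 to 7.65 and 4.06 FPKM (log2 fold change -1.51 ± 0.28, adjusted p = 0.0205). Of 26 hepatokine genes 1 rose, Gdf2, which encodes the vascular factor BMP9, with 2.07, 1.54 and 1.397 against 3.96 and 4.86 FPKM (log2 fold change 1.02 ± 0.17, adjusted p = 0.0143). Enho fell. Cela1, an elastase, was the 1 of 12 exocrine pancreas markers above 0 in these libraries and fell from 49.9, 35.4 and 49.9 to 13.9 and 16.2 FPKM (log2 fold change -1.51 ± 0.21, adjusted p = 0.00773).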
